A study of Mus musculus with 2 samples.

Results

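The genes described here encode the factors that start, extend and end protein synthesis on cytosolic ribosomes, together with the kinases, inhibitors and methyltransferases that are named after them. They were chosen by symbol, as every gene whose current name begins with Eif or Eef and a number, plus the release factor genes Etf1, Gspt1 and Gspt2. A value on both arrays was present for 58 of these genes, out of 13506 named genes measured on both. Each of 2 two-colour oligonucleotide arrays compared a liver metastasis (Cy3) with a primary tumour (Cy5) of Colon26 cells, a colon carcinoma line of Balb/c mice. The cells were cultured in RPMI1640 with serum and then placed under the rectal mucosa of Balb/c mice, and the labels name no altered gene and no drug for any group. Each array held a primary tumour and a metastasis, is titled as replicate 1 or 2, and counts as 1 replicate. The p-values combine the spread of each gene between 2 arrays with the spread pooled from all genes. The pooled spread weighs more, with 4.06 prior against 1 residual degree of freedom. The labels give neither the age of the mice nor the number of animals behind each RNA sample.

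Values are log ratios of the 2 channels, taken as log2. The sources used here state neither the channel in the numerator nor the log base, so positive and negative denote the 2 directions of the ratio and neither is assigned to the metastasis. Both arrays carried the dyes in the same orientation, and a preference of a probe for 1 dye cannot be told apart from a difference between the tissues. No intensity is part of the table, so levels, and with them the presence of tumour, liver or bowel markers, could not be checked. Precision is limited by having 2 arrays. No separation of tumour cells from host tissue is described, so fewer cells of a type and less RNA per cell cannot be told apart.

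Translation begins when eIF2 carries the initiator tRNA to the small ribosomal subunit, which eIF1, eIF1A and eIF3 prepare for binding to mRNA. The cap-binding protein eIF4E, the scaffold eIF4G and the helicase eIF4A recruit the mRNA, and unphosphorylated 4E-binding proteins block that step until the growth-regulating kinase complex mTORC1 phosphorylates them. Elongation is driven by eEF1A, which brings aminoacyl-tRNA, and eEF2, which moves the ribosome along. Phosphorylation of eIF2 in the integrated stress response lowers initiation on most mRNAs while favouring translation of the transcription factor ATF4.

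The RefSeq gene table (GRCm38.p6) lists 74 protein-coding genes that match the choice of symbols, of which 59 had a probe. Genes without a probe were Eef1g, Eif1, Eif1ax, Eif2ak1, Eif2s2, Eif2s3y, Eif3g, Eif3j2, Eif4a3l1, Eif4e1b, Eif4ebp3, Gspt2, Eef1akmt3, Eef1akmt4 and Eef1akmt4-ece2. The beta subunit of eIF2, the gamma subunit of eEF1 and the heme-regulated eIF2 kinase were therefore not measured. Eif4e3, a relative of the cap-binding protein, had a ratio of 2.14 on array 1 and no value on array 2, and was left out of every count.

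One of the 58 genes, Eef1a1, passed the test over all genes, on the negative side. The test was limma's moderated test of each gene's ratio against 0, adjusted by Benjamini-Hochberg over the 13506 genes at a threshold of 0.05. It called 2.90% of all genes, 0.777% on the negative side and 2.12% on the positive side, so 1 call among 58 is near the background. An unadjusted p under 0.05 was met by 18 of the 58 genes, or 31.0%, against 27.5% of all genes. Of these, 12 were negative, where the background was 12.5% of all genes, and 6 were positive, where it was 15.0%.

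By sign, 26 of the 58 genes were negative on both arrays, 17 were positive on both and 15 had mixed signs or a 0. Thus 44.8% of the translation factor genes were negative on both arrays, against 38.2% of all genes, and 29.3% were positive on both, against 33.9% of all genes. The median ratio of the 58 genes was -0.09, with -0.03 on array 1 and -0.14 on array 2, and that of all genes was -0.02. Ratios of at least 0.5 on both arrays were found for 6 genes on the negative side (4.51% of all genes) and for 2 genes on the positive side (7.91% of all genes). The negative ones were Eef1a1, Eif4ebp1, Eif5a, Eif3b, Gspt1 and Eef2, the last of them at the limit on array 1, and the positive ones were Eif3e and Eef1e1. Across the 58 genes, which are not independent replicates and share both arrays, Pearson's r between the arrays was 0.772 and Spearman's rho was 0.723.

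**Figure D1:**
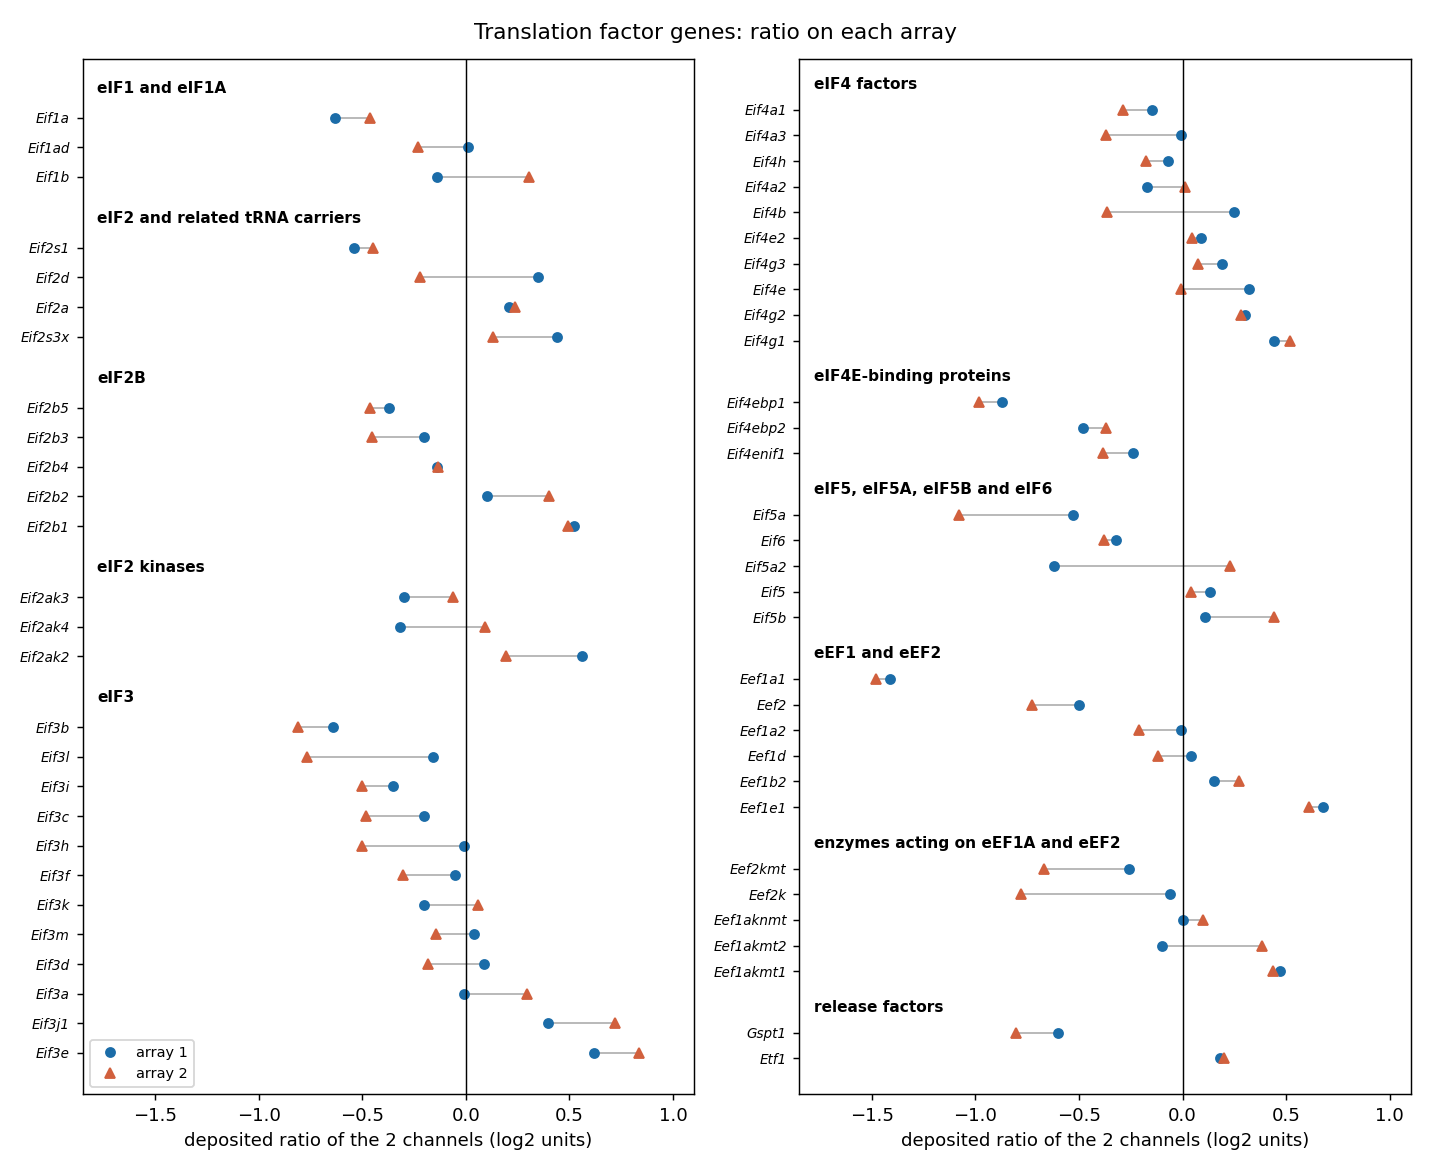
Ratio of the 2 channels in log2 units (x axis) for each of the 58 translation factor genes (rows, by complex), with array 1 as circles, array 2 as triangles and a grey line joining them. Eef1a1 lies farthest from 0 at -1.41 and -1.48, and each complex other than the 4E-binding proteins has members on both sides of 0 on at least 1 array.

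The genes that carry the name of an elongation factor held both the most negative gene and one of the most positive. Eef1a1, the main isoform of the factor that delivers aminoacyl-tRNA to the ribosome, had ratios of -1.41 on array 1 and -1.48 on array 2, a mean of -1.44 ± 0.05 (SD, n = 2). The arrays differed by far less than the distance from 0, which equals a 2.72-fold difference if the base is 2. The limma 95% interval, which like those below is not adjusted for the number of genes, ran from -1.83 to -1.06, with an adjusted p of 0.0320, and the mean ranked 36 from the negative end of all named genes. The adjusted p ranged from 0.0320 to 0.462 over 9 alternative settings, and the call was lost after quantile normalization (limma adjusted p = 0.0654). Eef1a1 has many processed copies in the mouse genome, so its probe may read more than 1 locus.

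Eef1a2, the isoform of muscle and neurons, had -0.01 and -0.21 and lay close to 0 on both arrays. Eef2, the translocase, had -0.50 and -0.73, a mean of -0.61 ± 0.16 (SD, n = 2) and a limma adjusted p of 0.101. The nucleotide exchange subunits of eEF1A did not follow Eef1a1 in sign on both arrays: Eef1b2 had 0.15 and 0.27, and Eef1d had 0.04 and -0.12. Eef1e1 carries the name of an elongation factor but is known as a scaffold protein of the multi-tRNA synthetase complex. It was positive at 0.68 and 0.61, a mean of 0.65 ± 0.05, with a 95% interval from 0.26 to 1.03 and a limma adjusted p of 0.0886.

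The enzymes that act on the elongation factors were spread around 0. Eef2k, the kinase that inactivates eEF2, had -0.06 and -0.78, and Eef2kmt, an eEF2 methyltransferase, had -0.26 and -0.67. For both genes the 2 arrays had the same sign but differed widely in size. Among the eEF1A methyltransferases, Eef1akmt1 was positive on both arrays at 0.47 and 0.43 (limma adjusted p = 0.146), while Eef1akmt2 had -0.10 and 0.39 and Eef1aknmt 0.00 and 0.10.

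**Figure D2:**
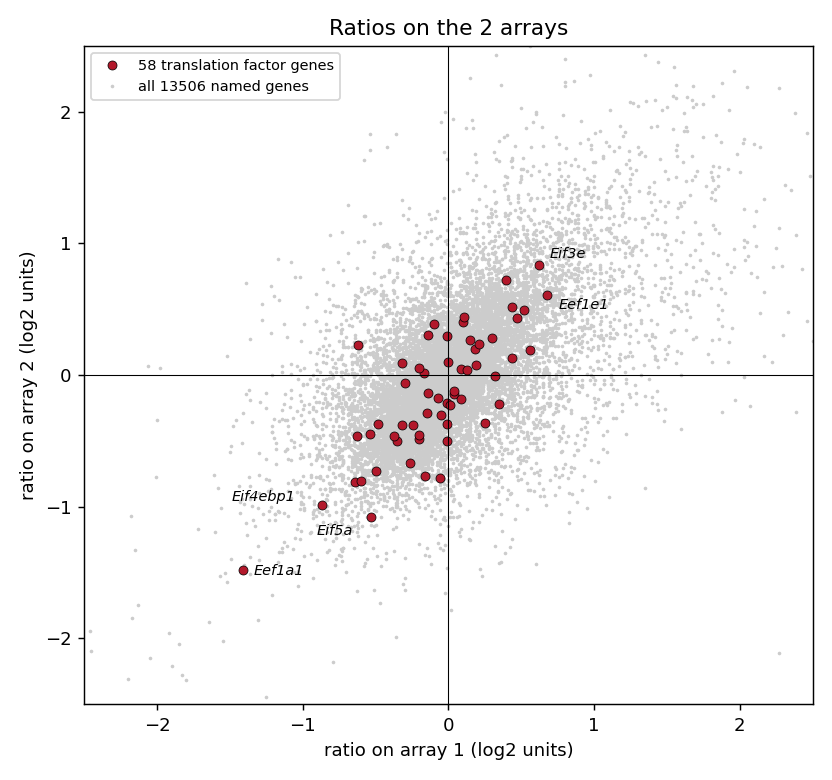
Ratio on array 2 against ratio on array 1, both in log2 units, for the 58 translation factor genes (red) and all 13506 named genes (grey), with 44 genes outside the axes. Most red points lie within the grey cloud, with Eef1a1 at the lower left at -1.41 and -1.48.

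To show the start of the called gene and of a factor from either side of the ratio, promoter sequence from RefSeq (GRCm38.p6) is given for Eef1a1, Eef2 and the eIF4 scaffold gene Eif4g1. Each run covers 100 bases before and 30 bases after the annotated start, 5′ to 3′ on the gene's strand. Capitals mark TATATAA in Eef1a1 (chr9:78481695-78481824, minus strand) and CACGTG in Eef2 (chr10:81176531-81176660, plus strand) and Eif4g1 (chr16:20672627-20672756, plus strand). CACGTG is the E-box, the sequence that Myc and related factors bind.
Eef1a1: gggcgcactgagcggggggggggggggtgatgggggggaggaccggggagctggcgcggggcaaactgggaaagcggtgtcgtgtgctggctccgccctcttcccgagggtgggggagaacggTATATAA
Eef2: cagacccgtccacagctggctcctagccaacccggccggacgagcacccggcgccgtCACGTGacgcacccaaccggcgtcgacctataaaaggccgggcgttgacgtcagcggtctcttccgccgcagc
Eif4g1: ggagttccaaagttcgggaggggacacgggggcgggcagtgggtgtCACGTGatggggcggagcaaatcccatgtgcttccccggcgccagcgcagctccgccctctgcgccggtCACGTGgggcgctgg

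In Eef1a1 the capitals begin 24 bases into the annotated transcript, counting the start as 1. Eef2 holds 1 E-box, which begins at position -43 from the start, and Eif4g1 holds 2, which begin at positions -54 and 16. Promoters were listed for 47 of the 58 genes and for 10826 named genes, from 250 bases before to 50 bases after each start, and 10 motifs were searched on both strands with these results in view. CACGTG was present at 1 or more starts of 13 of the 47 genes, or 27.7%, against 10.8% of all genes with a promoter. These were Eef1aknmt, Eef2, Eef2k, Eif1b, Eif3a, Eif3f, Eif3k, Eif4a1, Eif4e, Eif4g1, Eif4h, Eif5a and Eif5a2. By window rather than by gene, CACGTG was present in 24.2% of the 62 windows of translation factor genes and in 9.13% of all windows. Of the 13 genes, 6 were negative on both arrays, 1 was positive on both and 6 were mixed or had a 0, with a median of -0.12. Of all 58 genes 44.8% were negative on both arrays and 29.3% positive on both, and the difference was not tested.

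Of the other motifs, CCGGAAG and GGAAGTG, 2 partly overlapping forms of the site of ETS factors, were present in 31.9% and 25.5% of translation factor genes and in 16.9% and 14.9% of all genes. GGGCGG, the GC box, was in 76.6% against 61.0%. CCAAT was in 31.9% against 42.1%, and ATTGGCT, whose first 5 letters are the reverse complement of CCAAT, in 10.6% against 11.5%. TATAAA was in 8.51% against 11.6%, held by Eef2, Eif2s1, Eif3b and Eif3f. These 4 were negative on both arrays, Eif3f at only -0.05 on array 1, as were 44.8% of the 58 genes. A link of this motif to the sign was not tested. TATATAA was in 1 gene (2.13% against 2.37%), TGACGTCA in 1 (2.13% against 3.19%) and TGATGNAA, a form of the ATF4 element, in 2 (4.26% against 3.14%). These are matches of letters and no binding was measured.

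Cap recognition had its inhibitors on the negative side and its scaffold on the positive side. Eif4ebp1, the 4E-binding protein that mTORC1 phosphorylates and ATF4 induces, had -0.87 and -0.98, a mean of -0.93 ± 0.08 (SD, n = 2). Its 95% interval, from -1.32 to -0.54, lay below 0, but the limma adjusted p of 0.0525 missed the threshold. It missed the threshold in each of 9 alternative settings, with limma adjusted p from 0.0525 to 0.463. Eif4ebp2, a second such inhibitor, had -0.48 and -0.37 (mean -0.43 ± 0.08, limma adjusted p = 0.161), and Eif4enif1, which carries eIF4E into the nucleus, had -0.24 and -0.38. The 3 genes were thus negative on both arrays, though none passed.

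Eif4g1, the main scaffold, had 0.44 and 0.52, a mean of 0.48 ± 0.06 (SD, n = 2) with a 95% interval from 0.09 to 0.87 and a limma adjusted p of 0.133. Eif4g2, a relative that does not bind eIF4E, had 0.30 and 0.28, and Eif4g3 had 0.19 and 0.07. All 3 scaffold genes were thus positive on both arrays, none past the threshold. Eif4e, the cap-binding protein itself, had 0.32 and -0.01, and its relative Eif4e2 had 0.09 and 0.05.

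The eIF4A helicases and their helpers were near 0. Eif4a1 had -0.15 and -0.29, Eif4a2 -0.17 and 0.01, and Eif4a3, a part of the exon junction complex, -0.01 and -0.37. Of the helicase cofactors, Eif4b had 0.25 and -0.36, with opposite signs on the arrays, and Eif4h had -0.07 and -0.18. The 10 eIF4 genes together had a median of 0.01 and ranged from -0.22 for Eif4a1 to 0.48 for Eif4g1, while 0 of them passed in limma and 1 had an unadjusted p under 0.05.

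The 12 measured subunits of eIF3, the largest initiation factor, divided. Negative ratios on both arrays were found for 6 and positive ones for 2, the other 4 changed sign between arrays, and the median was -0.12. Eif3b, a core subunit, was the most negative at -0.64 and -0.81, a mean of -0.73 ± 0.12 (SD, n = 2), with a 95% interval from -1.12 to -0.33 and a limma adjusted p of 0.0783. Eif3e, also known as Int6, was the most positive of all 58 genes at 0.62 and 0.84, a mean of 0.73 ± 0.15, with an interval from 0.32 to 1.13 and a limma adjusted p of 0.0801. The 2 subunits of 1 complex were thus about equally far from 0 in opposite directions, each farther than the arrays differed.

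Eif3i, which binds Eif3b in the complex, had -0.35 and -0.50. Eif3l, Eif3c, Eif3h and Eif3f had means of -0.46, -0.34, -0.26 and -0.18. These 5 were negative on both arrays, with the arrays of Eif3l and Eif3h far apart. Eif3a, the largest subunit, had -0.01 and 0.29, and Eif3d, Eif3k and Eif3m had means from -0.07 to -0.05.

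Eif3j1, a loosely attached subunit, had 0.40 and 0.72 as the average of 3 probes that disagreed. One probe had 1.17 and 1.67, another 0.04 and 0.08, and the other -0.02 and 0.42. The positive mean thus came mainly from 1 probe. Eif3j2, a close copy of the gene, has no probe of its own here, and which of the copies each probe reads was not tested.

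Subunits of eIF2 and of its exchange factor eIF2B also lay on both sides. Eif2s1, the alpha subunit that the stress kinases phosphorylate, had -0.54 and -0.45, a mean of -0.50 ± 0.06 (SD, n = 2; limma adjusted p = 0.128). Eif2s3x, the gamma subunit that binds GTP and the tRNA, had 0.44 and 0.13. The alternative tRNA carriers Eif2a and Eif2d had 0.21 and 0.24, and 0.35 and -0.22. Only Eif2s1 of these 4 genes was negative on both arrays.

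Within eIF2B, which reloads eIF2 with GTP, Eif2b1 of the regulatory part was positive at 0.52 and 0.49, a mean of 0.51 ± 0.02 (SD, n = 2; limma adjusted p = 0.122). Eif2b5, the catalytic subunit, was negative at -0.37 and -0.46, and Eif2b3, its partner, had -0.20 and -0.45. The regulatory subunits Eif2b2 and Eif2b4 had 0.10 and 0.40, and -0.14 and -0.13. All 5 kept 1 sign on both arrays, 3 negative and 2 positive, while 0 of 5 passed in limma and 2 had an unadjusted p under 0.05.

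The 3 measured eIF2 kinases stayed within 0.6 of 0 on each array. Eif2ak2, the interferon-induced kinase PKR that senses double-stranded RNA, had 0.56 and 0.19 (limma adjusted p = 0.226). Eif2ak3, the kinase PERK of the endoplasmic reticulum, had -0.30 and -0.06, and Eif2ak4, the amino acid sensor GCN2, had -0.32 and 0.09. Only Eif2ak2 was positive on both arrays, while 0 of 3 passed in limma and 0 had an unadjusted p under 0.05.

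Among the factors of start site selection and subunit joining, Eif1a was negative at -0.63 and -0.46, a mean of -0.55 ± 0.12 (SD, n = 2; limma adjusted p = 0.115). Eif1b had -0.14 and 0.31, and Eif1ad 0.01 and -0.23. Eif5 and Eif5b, which act on GTP hydrolysis by eIF2 and on joining of the large subunit, had 0.13 and 0.04, and 0.11 and 0.44. Eif6, which keeps the subunits apart, had -0.32 and -0.38. Eif1a and Eif6 were thus negative on both arrays, and Eif5 and Eif5b positive on both.

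Eif5a, the hypusine-bearing factor that helps the ribosome past difficult peptide bonds, was negative at -0.53 and -1.08. Its mean of -0.80 ± 0.39 (SD, n = 2) had the third place from the negative end of the 58 genes, but the arrays were far apart and the limma adjusted p was 0.0911. Eif5a2, its tissue-restricted relative, had -0.62 and 0.23, with opposite signs on the arrays. Of the release factors, Gspt1, the GTPase eRF3, had -0.60 and -0.80, a mean of -0.70 ± 0.14 and a limma adjusted p of 0.0833. Its partner Etf1, the stop codon reader eRF1, had 0.18 and 0.20.

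Set beside other genes of the translation machinery, the factors had a median of -0.09 and the 57 measured cytosolic ribosomal proteins one of -0.49. Both arrays were negative for 46 ribosomal protein genes (80.7%, against 38.2% of all genes) and positive for 6 (10.5% against 33.9%). Limma called 4 (7.02%), all negative, against 2.90% of all genes and 0.777% on the negative side. The 77 measured mitochondrial ribosomal proteins had a median of 0.03, with 24 negative and 30 positive on both arrays. In limma 0 of them passed and 10 (13.0%) had an unadjusted p under 0.05, against 27.5% of all genes. These are counts beside each other, and the difference between the sets was not tested. The SD across genes was 0.41 for the translation factors, 0.49 for the cytosolic ribosomal proteins and 0.48 for all genes.

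**Figure D3:**
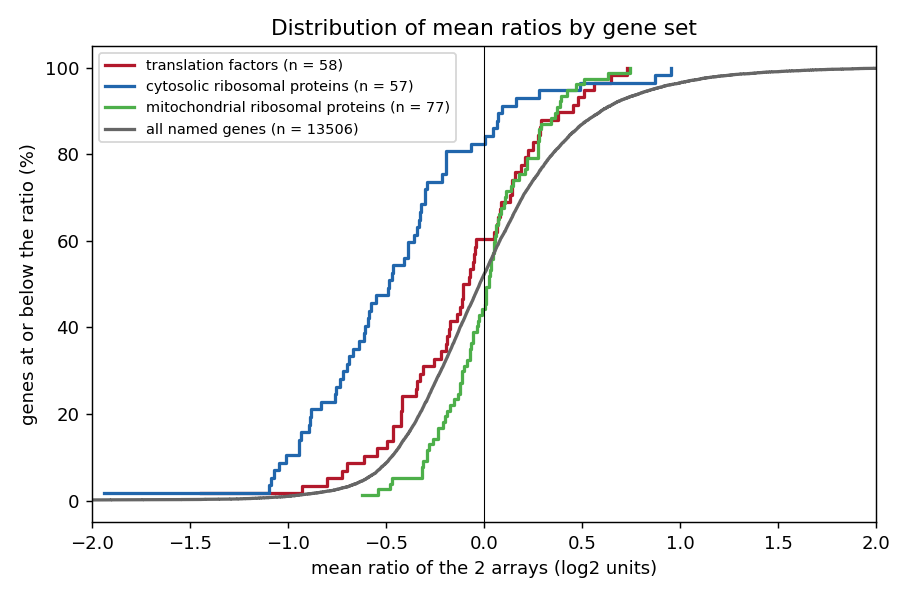
Percentage of genes at or below a given mean ratio of the 2 arrays (x axis, log2 units) for 58 translation factors, 57 cytosolic and 77 mitochondrial ribosomal proteins and all 13506 named genes. The line of the translation factors runs close to that of all genes, with medians of -0.09 and -0.02, and that of the cytosolic ribosomal proteins lies to the left with a median of -0.49.

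Messages with a 5′ terminal oligopyrimidine (TOP) tract, whose translation depends on mTORC1, include several elongation factors besides the ribosomal proteins. Of 15 such genes outside the ribosomal proteins, 12 were measured, 8 of them among the 58. On both arrays 7 were negative (58.3%, against 38.2% of all genes) and 2 positive (16.7% against 33.9%), with a median of -0.19. Eef1a1 alone was called (8.33%, against 2.90% of all genes). Tpt1, a growth-associated protein, had -0.46 and -0.71, and Npm1, a nucleolar chaperone, -0.39 and -0.76. Pabpc1, the poly(A)-binding protein, had -0.15 and 0.20.

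In the mTORC1 and MNK list 6 of 13 measured genes (46.2%, against 38.2% of all genes) had negative ratios on both arrays. Positive ones were found for 4 (30.8% against 33.9%). The median was -0.15, limma called 0, and 3 (23.1%) had an unadjusted p under 0.05, against 27.5% of all genes. Larp1, which represses TOP messages, had -0.72 and -0.76, a mean of -0.74 ± 0.03 (SD, n = 2; limma adjusted p = 0.0708). Mknk2, a kinase of eIF4E, had -0.38 and -0.72, and Rps6kb1, the S6 kinase, 0.63 and 0.26. The first 2 were thus negative and Rps6kb1 positive on both arrays, without a call.

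Genes of a list for the integrated stress response, which includes Atf4 itself, were mostly negative. Of 11 measured, 10 had negative ratios on both arrays and 1 had positive ones, with a median of -0.59, and 7 had an unadjusted p under 0.05, 6 of them negative. Over all genes 38.2% were negative on both arrays, 27.5% had an unadjusted p under 0.05 and 2.90% were called, and the difference of this list from other genes was not tested. Asns, asparagine synthetase, was the 1 called, at -0.89 and -1.04, a mean of -0.96 ± 0.10 (SD, n = 2), and its limma adjusted p of 0.049999 was at the threshold. It passed in 1 of 9 alternative settings, the change of log base, which leaves p as it was, and limma adjusted p reached 0.463. Chac1, which degrades glutathione, had -0.84 and -1.03, and Psat1, of serine synthesis, had -0.74 and -1.32. Atf4 itself had -0.55 and -0.47, Ddit3, which encodes CHOP, -0.10 and -0.09, and Nupr1 was the positive one at 0.44 and 0.34. Eif4ebp1, a known ATF4 target outside this list that was named here with its value known, was on the same side at -0.93.

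Regulators and modifying enzymes held 1 call (6.67%, against 2.90% of all genes). Impact, a protein that binds GCN1 and so restrains the kinase GCN2, was positive at 1.21 and 1.16, a mean of 1.19 ± 0.03 (SD, n = 2; limma adjusted p = 0.0404). It passed in 5 of 9 alternative settings, 1 of them the change of log base, with limma adjusted p from 0.0404 to 0.462. Gcn1 had -0.45 and -0.25, on the other side. Dph7 and Dph5, of the pathway that makes the diphthamide residue of eEF2, had 0.83 and 1.03, and 0.46 and 0.90, while Dph1 had -0.46 and -0.78. Dhps and Dohh, which make the hypusine of eIF5A, had means of -0.34 and -0.01. Of the 15 measured genes of this list, 4 of them among the 58, both arrays were positive for 7 and negative for 6, and the median was 0.14.

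For 18 measured genes of cytosolic tRNA charging, both arrays were negative in 12 cases and positive in 3, with a median of -0.32. Those are 66.7% and 16.7%, against 38.2% and 33.9% of all genes, and the difference was not tested. Cars, the cysteinyl-tRNA synthetase, had -0.75 and -0.87, Tars -0.64 and -0.62, and Mars1 -0.65 and -0.53. Aimp1, a scaffold of the same complex as Eef1e1, was positive at 0.54 and 1.01, and Aimp2, another, had -0.30 and -0.35. Among the other synthetases, Iars had 0.09 and 0.38 and Qars 0.05 and 0.06, while Hars, Lars and Yars had mixed signs. Neither the synthetases nor the scaffolds Aimp1, Aimp2 and Eef1e1 thus lay all on the same side. None of the 18 passed in limma (0 calls), and 7 (38.9%) had an unadjusted p under 0.05, against 27.5% of all genes.

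Among 12 measured genes of poly(A) binding, recycling and rescue, of which 3 (Gspt1, Etf1 and Eif2d) are also among the 58, 6 were positive and 3 negative on both arrays, with a median of 0.11. Paip2, an inhibitor of the poly(A)-binding protein, had 0.82 and 1.26, a mean of 1.04 ± 0.31 (SD, n = 2; limma adjusted p = 0.0556), and Paip1, an activator, had 0.41 and 1.14. Both were positive on each array, while 0 of the 12 passed in limma and 3 had an unadjusted p under 0.05. The 10 measured mitochondrial translation factors had a median of 0.14, with Mtrf1 at 0.59 and 0.75, Tsfm at -0.54 and -0.81 and Mrrf at -0.64 and -0.47. None of these passed in limma (0 calls), and 4 had an unadjusted p under 0.05.

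**Figure D4:**
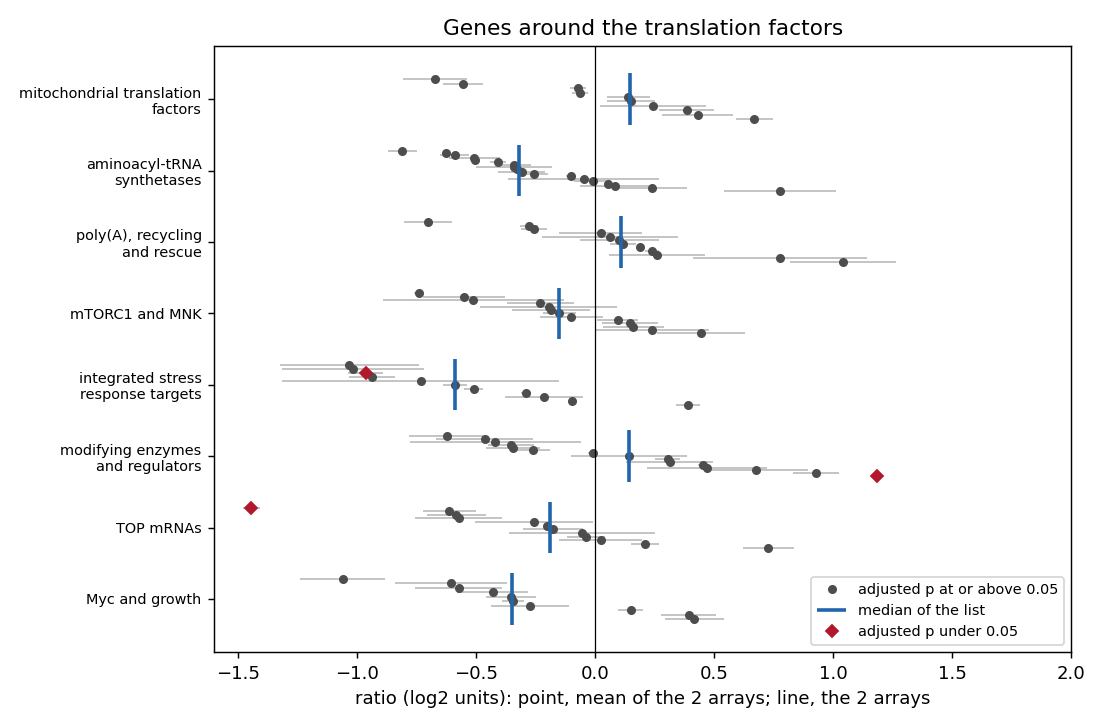
Mean ratio of the 2 arrays in log2 units (points), the values of the 2 arrays (ends of grey lines) and list medians (blue bars) for 8 lists of genes related to translation. Red diamonds mark the genes with a limma adjusted p under 0.05, which are Asns, Impact and Eef1a1, and the list of stress response targets has a median of -0.59.

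For 10 measured Myc and growth genes, both arrays were negative in 7 cases and positive in 3, with a median of -0.35, while 0 passed in limma and 5 had an unadjusted p under 0.05. Myc had -0.30 and -0.39, Ldha -1.24 and -0.88, Cdk4 -0.37 and -0.84, and the nucleolar protein gene Nop58 0.54 and 0.29. Markers of other cells were read beside these. The 10 measured hepatocyte genes had a median of 0.00 (0 called, 4 at an unadjusted p under 0.05 in limma), ranging from -0.95 for Fah to 0.80 for Ttr. The 7 leukocyte genes had a median of -0.20 and ranged from -1.20 for Cd14, the 1 called, to 0.99 for Cd2, and for 4 genes both arrays were negative and for 2 positive. The 8 stroma and endothelium genes had a median of -0.29 and ranged from -2.93 for Col1a1, the 1 called, to 0.70 for Eng, with 5 negative on each array and 3 positive on each. Of other fibrillar collagen genes, Col1a2 had -0.38 on array 1 and -0.11 on array 2, and Col3a1 had -0.72 and -0.09. The endothelial gene Cdh5 had 0.21 and 0.74. The 6 colonic epithelium genes had a median of -0.12 and ranged from -0.42 for Vil1 to 0.49 for Krt20, with 3 negative on each array, 2 positive on each and 0 called in limma. An unadjusted p under 0.05 was met by 4 leukocyte, 2 stroma and endothelium and 2 colonic epithelium genes. Cd14 passed in 1 of 9 alternative settings, the change of log base, which leaves p as it was. Col1a1 passed in 7, of which the change of log base is 1. The part of differing cell content, dye or brightness in the ratios of the translation factors was not tested.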

How the data were processed

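Total RNA of 2 pairs of Colon26 tumours was amplified with an amino-allyl aRNA kit, coupled to Cy3 (liver metastases) or Cy5 (primary tumours) and hybridised to 2 arrays, per the labels' protocols. The deposited table holds 1 log ratio per probe and array, taken as log2. The sources used here do not state its numerator, base, background correction, filter or normalization. The table lists 23473 probes, 18837 of them measured on both arrays. The platform annotation names 1 gene for 16631 probes, several for 0 and none for 6842. RefSeq's GRCm38.p6 table held 12622 of these symbols as they stand, gave a newer name for 3947, and 62 stayed as annotated. Probes of a gene were averaged, giving 13506 genes. Of the 58 translation factor genes, 57 had 1 probe and Eif3j1 had 3.

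Limma 3.58.1 under R 4.3.3 compared the ratio of each gene with 0 (intercept-only lmFit and eBayes; 1 residual and 4.06 prior degrees of freedom), and p-values were adjusted by Benjamini-Hochberg over all genes at 0.05. Errors are the SD of the 2 arrays. The test was also run on simulated ratios with independent errors and spreads drawn from limma's own fitted prior. Such ratios carry no dye effect, so that run cannot show whether the test holds for these arrays. Members and lists were chosen with earlier results of these data known, so no p was adjusted over a list and no list was tested as a set. The rule for genes given in full took each called member, up to 8 members per side by the value on their weaker array, and the eIF4, 4E-binding, eIF2 kinase and elongation factor genes. From each related list it took called genes and up to 3 by the value on their weaker array. Further genes were named with their values known. Alternatives were centring, scaling, quantile normalization, a natural log, 1 probe per gene, a fit on probes, robust eBayes, a minimum fold of 1.2, no moderation and each array alone. Figures were drawn with matplotlib 3.10.9.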

Additional observations from a re-analysis of the deposited data

How the results depend on the processing

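Of all 13506 genes, limma called 391 as deposited, 108 when a fold of 1.2 or more was required, 241 with arrays centred and scaled, 4 with quantile normalization and 0 unmoderated, and the fit on 18837 probes called 238. The number of called translation factor genes was 1 as deposited and 0 after quantile normalization and without moderation, where Eef1a1 had limma adjusted p of 0.0654 and 0.462 at an unchanged ratio of -1.45 and -1.44. Without moderation the test has 1 residual degree of freedom, and 0 of 13506 genes passed. In the other 7 settings Eef1a1 was called. Of the related genes, Impact was called in 5 of 9 settings and Asns in 1. These counts include the change of log base, which leaves every p as it was. The median of the 58 genes was -0.09 and ranged from -0.14 to -0.07 over the 9 settings, from -0.14 to -0.03 over each array alone, and was -0.08 with Eif4e3 added. Centring moved the genes negative on both arrays to 23 and those positive on both to 20. If the base is the natural logarithm, the ratio of Eef1a1 becomes -2.08 log2 units with the same p. No test is possible with 1 array, so each array alone gave values only. The 2 tissues of a replicate share 1 array and the deposited value is their ratio, so the test against 0 is paired by array. No unpaired analysis was possible, because no intensity of a single channel is part of the table.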
